A study of Mus musculus with 212 samples.

Results

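Adult ventricular cells of the mouse heart were set against neonatal ones in a table of single cells measured by quantitative PCR. Members were the cells whose names in the ventricular table begin with adult-ventricular (10 cells) or Neo-ventricular (5 cells, read as neonatal), which are 15 of the 200 columns of cells in the series. Of these columns 8 repeat another, none of them a ventricular cell. The series follows cardiovascular lineages in cells of differentiating mouse embryonic stem cell cultures, embryos and hearts. Each cell was sorted into its own well, lysed and reverse transcribed, its cDNA was pre-amplified with TaqMan assays, and 42 assays of 33 genes were read on a microfluidic chip. No strain, genotype, treatment or age in days is given for either age, and all ventricular samples share the source "ventricular chamber" and the cell type "cardiac". No label names an animal, so the 10 adult cells and the 5 neonatal cells each count as 1 sample, and no test was run.

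Ventricular cardiomyocytes are the contractile cells of the pumping chambers. Their sarcomeres combine thick filaments of myosin, whose heavy chains are encoded by Myh6 (alpha) and Myh7 (beta) and whose ventricular regulatory light chain is Myl2, with thin filaments regulated by the troponins Tnnt2 and Tnni3 and anchored by alpha-actinin (Actn2). In the mouse ventricle the beta heavy chain is the form of the fetus and the alpha heavy chain the main form of the adult. After birth these cells stop dividing and enlarge, and their gene expression turns from a growing to a mature state.

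Expression is given as 25 minus the quantification cycle (Ct), in cycles above the detection limit. At full PCR efficiency 1 cycle is a log2 unit, and an assay without signal is at 0. A cell at 0 may have any level below the limit. A difference from a group at 0 is therefore a lower limit in size where every cell of the other group was detected, as for Vcam1, and not where some were undetected, as for Hcn4 and Hand1. Assays differ in efficiency, so values are compared between cells and not as amounts between genes. An assay was counted as higher or lower in adult cells when the mean over cells differed by at least 1 cycle, and each SD describes how far cells spread. Where a gene has a pair of assays they carry the numbers of the table.

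All 15 cells carried the signal of ventricular muscle. Both assays of Tnnt2 and of Tnni3, both assays of Myh6, Myl2, Actn2, both assays of the cardiac homeobox factor Nkx2.5, and the transcription factors Tbx5 and Hand2 were detected in every cell. Sln (sarcolipin, the calcium pump regulator of atrial muscle) was detected in 0 of 10 adult and 0 of 5 neonatal cells. Detected values lay between 0.0735 and 16.50 cycles. Adult cells detected fewer assays, with a lowest, median and highest number of 18, 21.5 and 28, against 28, 26, 26, 23 and 24 in neonatal cells 1 to 5. The means were 21.7 ± 3.06 (SD, n = 10) and 25.4 ± 1.95 (SD, n = 5), and adult cells 2, 4 and 6 (25, 28 and 23 assays) lay within the neonatal range.

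The 12 assays detected in every cell were stronger on average in adult cells. Averaged over the 12 assays found in all 15 cells, a cell's level was 10.05 at the lowest, 11.75 at the median and 12.92 at the highest in adult cells, against a lowest value of 8.89, a median of 9.87 and a highest value of 10.96 in neonatal cells. The mean was 11.53 ± 0.98 (SD, n = 10) in adult and 9.89 ± 0.77 (SD, n = 5) in neonatal cells, a difference of 1.64 cycles. Adult cells exceeded neonatal ones by at least 1 cycle on 10 of these 12 and were lower on 0, with differences between 0.09 and 2.67 and a median of 1.81. More transcript of a given gene and more RNA, or more complete recovery of RNA, per cell cannot be told apart by these values. Differences are therefore also given after centring each cell on the median of its detected assays, and on the median of the 12 assays shared by all cells. On these scales an undetected value takes the lowest centred value of any detected assay in the 15 cells, so centred differences of assays that are often undetected depend on that choice. The median of detected assays also depends on which assays a cell detects, and adult cells detected fewer.

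As measured, 20 of the 42 assays (47.6%) stood at least 1 cycle apart between the ages, with 13 (31%) higher in adult cells and 7 (16.7%) lower. With each cell centred on its median detected assay these were 3 (7.14%) and 11 (26.2%), 14 in all (33.3%), and the median assay shifted by -1.01 cycles. Centred on the 12 shared assays they were 1 (2.38%) and 15 (35.7%), 16 in all (38.1%), with a shift of -1.44. Centred on Actb they were 11 (26.2%) and 7 (16.7%), 18 in all (42.9%), with a shift of -0.23. Ranges of the ages did not overlap for 2 assays (4.76%) as measured, for 3 (7.14%) centred on the median detected assay, and for 5 (11.9%) centred on the 12 shared assays, of which 1 (Tnni3-1) was higher and 4 (9.52%, Vim, Vcam1, Gata4-2 and Myl2) were lower. The assay that stayed at least 1 cycle higher on each of these scales was Hcn4. Those at least 1 cycle lower on each were Vim, Vcam1, Pdgfra, Gata4-2, Pou5f1, Mef2C-2 and Hand1. The dots for single cells show these 20 assays as measured.

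**Figure D1:**
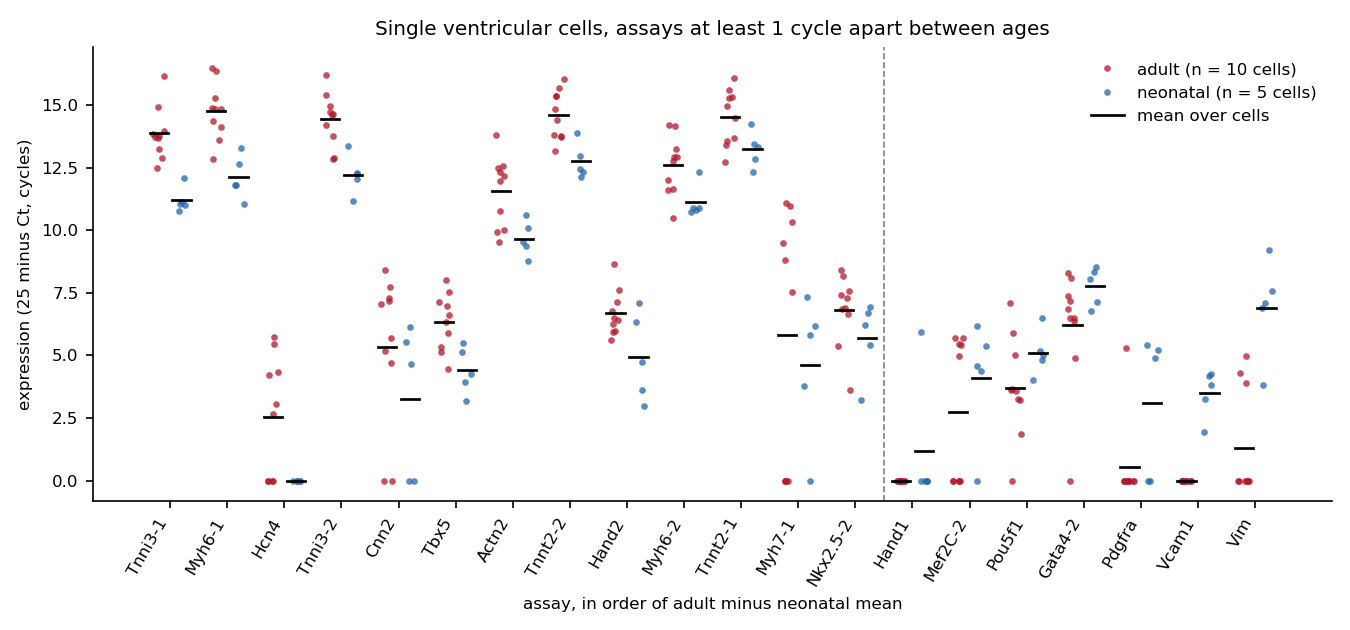
Expression (25 minus Ct, in cycles) of the 20 assays at least 1 cycle apart, in each of 10 adult (red, left) and 5 neonatal (blue, right) ventricular cells; black bars are means over cells and points are spread sideways for visibility. The 13 assays left of the dashed line were higher and the 7 right of it lower in adult cells; Tnni3-1 and Vcam1 are the 2 assays whose ages do not overlap.

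The sarcomere genes formed the largest group of assays higher in adult cells. Of the 10 sarcomere assays 8 stood higher by 1 cycle or more as measured, beside 31% of all 42 assays. None was lower, and 2 (Myl2 and Myh7-2) lay within 1 cycle. Their median difference was 1.67 cycles, beside 0 over all 42 assays, of which 8 were detected in no cell. Over the 12 assays detected in every cell the median was 1.81. Of these 12, those outside the list were Tbx5 (1.94), Hand2 (1.74), Nkx2.5-2 (1.14) and Nkx2.5-1 (0.73). Centred on the median detected assay, 2 sarcomere assays were higher and 2 lower with a median of 0.40, beside 7.14% and 26.2% of all 42. Centred on the 12 shared assays 0 were higher and 2 lower with a median of -0.07, beside 2.38% and 35.7%. The 12 shared assays include 8 of the sarcomere list, so the last scale measures these assays mainly against each other.

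Cardiac troponin I, the inhibitory subunit of the thin filament, was higher on both assays. Tnni3-1 was at 13.76, 13.99, 13.73, 16.19, 12.47, 13.70, 12.90, 14.94, 13.27 and 13.84 cycles in adult cells 1 to 10, against 12.08, 11.13, 11.04, 11.01 and 10.77 in neonatal cells 1 to 5. The lowest adult cell lay above the highest neonatal cell. The means were 13.88 ± 1.05 (SD, n = 10) and 11.21 ± 0.50 (SD, n = 5), a difference of 2.67 cycles, which was 1.40 relative to the median detected assay and 0.94 relative to the 12 shared assays. Tnni3 was the single gene with a non-overlapping higher assay as measured (1 of 42, 2.38%). Its other assay, Tnni3-2, was at 12.86 at the lowest, 14.64 at the median and 16.19 at the highest in adult cells, against 13.38, 12.04, 12.26, 12.29 and 11.16 in neonatal cells. This assay was 2.21 cycles higher, and neonatal cell 1 reached into the adult range.

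Alpha myosin heavy chain, the fast motor of the adult mouse heart, was also higher. Myh6-1 had a lowest, median and highest level of 12.86, 14.87 and 16.50 in adult cells, against 13.30, 12.66, 11.83, 11.83 and 11.07 in neonatal cells. The difference was 2.64 cycles as measured and 1.37 centred on the median detected assay. Neonatal cell 1 alone lay within the adult range. Myh6-2 had 10.496, 12.85 and 14.22 as its lowest, median and highest adult level, against 12.32, 10.89, 10.91, 10.83 and 10.75 in neonatal cells, a difference of 1.47 that was 0.20 centred on the median detected assay and -0.27 on the 12 shared assays. The gap of Myh6-1 over Myh6-2 inside a cell was 1.92 to 2.71 cycles in adult cells and 0.32 to 1.77 in neonatal cells, ranges that did not overlap, a gap computed after the values were seen. The assays of this gene therefore give age differences 1.17 cycles apart.

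Cardiac troponin T, which ties the troponin complex to tropomyosin, and alpha-actinin, the cross-linker of the Z-disc, were higher by less. Tnnt2-2 had 13.18, 14.64 and 16.06 as its lowest, median and highest adult level, against 13.89, 12.98, 12.46, 12.35 and 12.13 in neonatal cells, a difference of 1.87. Tnnt2-1 was 1.27 cycles higher, with means of 14.51 ± 1.11 and 13.24 ± 0.72, and this difference was 0 centred on the median detected assay and -0.46 on the 12 shared assays. Actn2 had 9.53, 12.08 and 13.83 as its lowest, median and highest adult level, against 10.60, 9.53, 10.11, 9.37 and 8.76 in neonatal cells, a difference of 1.89 that was 0.62 on the median detected assay. All 3 of these assays overlapped between ages.

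Myl2, the regulatory light chain, did not share the difference. It was at 14.16, 13.72, 14.37, 14.04, 12.10, 14.41, 10.52, 14.89, 12.66 and 12.72 cycles in adult cells, against 14.42, 13.08, 13.41, 12.95 and 12.48 in neonatal cells. The means were 13.36 ± 1.34 (SD, n = 10) and 13.27 ± 0.72 (SD, n = 5), 0.09 cycles apart, and the neonatal range lay inside the adult one. Inside single cells Myl2 was set against each of the other 9 sarcomere assays, and for 5 of them (both assays of Tnni3 and of Tnnt2, and Actn2) the ages did not overlap, with adult cells lower. The level of Myl2 minus that of Tnni3-1 was -2.37 to 0.71 cycles in adult cells and 1.71 to 2.37 in neonatal cells, ranges that did not overlap, with means of -0.52 ± 1.08 and 2.06 ± 0.29. Myl2 minus Tnni3-2 had means of -1.07 ± 0.73 and 1.04 ± 0.24, and Myl2 minus Tnnt2-1 had means of -1.15 ± 0.84 and 0.03 ± 0.17. The ages overlapped for Myl2 minus Myh6-1 (means of -1.42 and 1.13) and minus Myh6-2 (0.75 and 2.13). They also overlapped for Myl2 minus Myh7-1 (7.54 and 8.64) and minus Myh7-2 (5.85 and 5.43). These Myh7 means include cells without Myh7 signal, where the value is a lower limit. For Myl2 minus Myh7-1 the adult minus neonatal difference was -3.11 over the 6 adult and 4 neonatal cells detecting both. For Myl2 minus Myh7-2 it was -2.83 over 7 adult and 5 neonatal cells, against 0.42 over all cells. The direction for Myh7-2 therefore rests on the cells without signal. Such differences inside a cell are the same on every scale where both assays were detected. These 9 were computed after their values were seen. Centred on the 12 shared assays, Myl2 itself was 1.64 cycles lower in adult cells and did not overlap between ages.

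**Figure D2:**
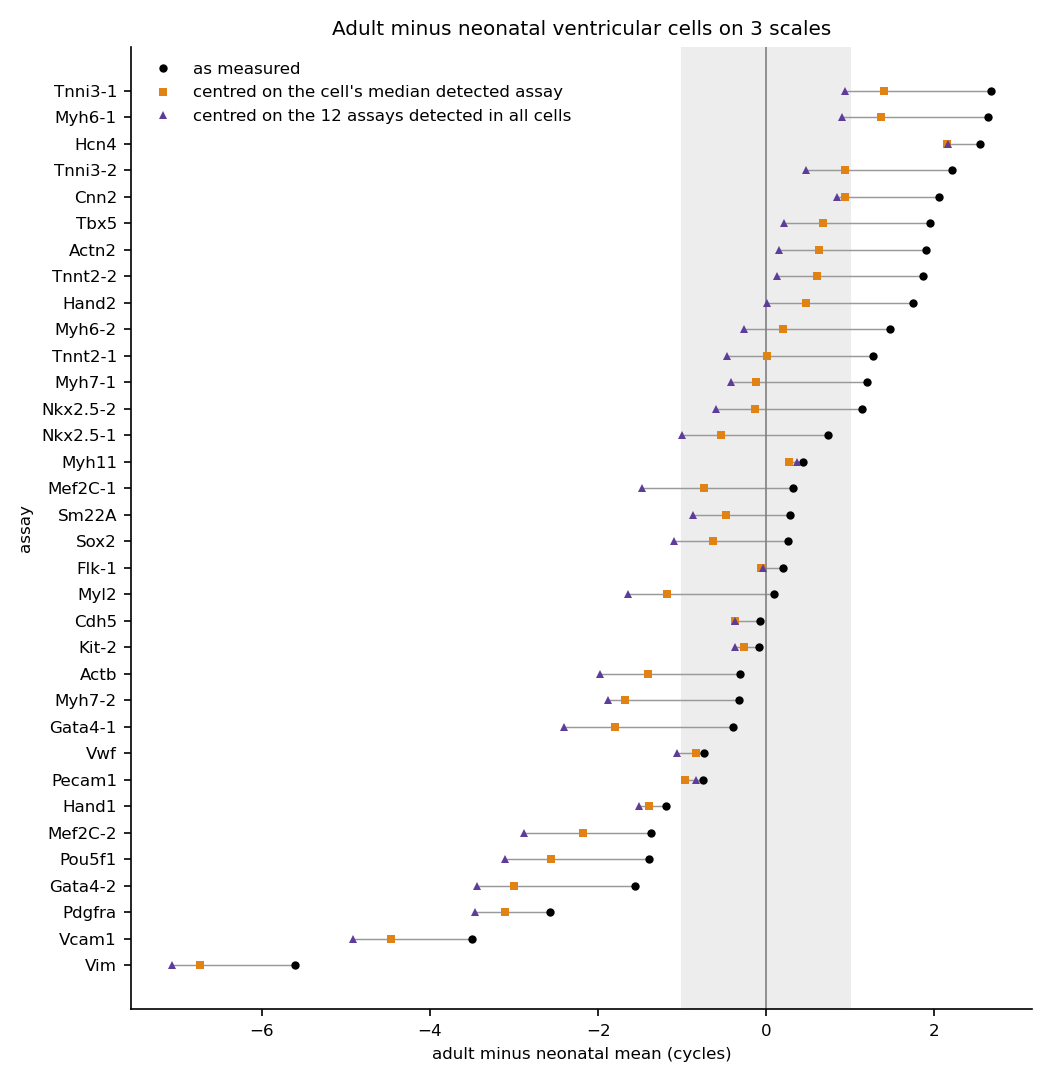
Adult minus neonatal mean (x axis, cycles) of the 34 assays detected in at least 1 ventricular cell (y axis), as measured (circles), centred on each cell's median detected assay (squares) and centred on the 12 assays detected in all cells (triangles); the grey band spans -1 to 1 cycle. Tnni3-1 moves between 2.67 and 0.94 and Myl2 between 0.09 and -1.64, while Vim lies at -5.60 or below on all 3 scales.

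The beta heavy chain Myh7 divided the adult cells. Myh6 and Myh7 are neighbours on chromosome 14 and are known to be regulated in opposite directions around birth, so the upstream sequence of both is shown here as RefSeq lists it for GRCm38.p6, 250 bases before the annotated start on the minus strand. The window of Myh6 (chr14:54966608-54966857) lies inside the annotated span of that gene (chr14:54941921-54968017). The window of Myh7 (chr14:54994627-54994876), from the more upstream of 2 listed starts, lies directly before the span of its gene (chr14:54970684-54994626). Capitals mark matches to the M-CAT element CATTCC, a site of TEAD factors in muscle genes, searched on both strands together with the GATA core GATAA and the TATA box TATAAA.
Myh6: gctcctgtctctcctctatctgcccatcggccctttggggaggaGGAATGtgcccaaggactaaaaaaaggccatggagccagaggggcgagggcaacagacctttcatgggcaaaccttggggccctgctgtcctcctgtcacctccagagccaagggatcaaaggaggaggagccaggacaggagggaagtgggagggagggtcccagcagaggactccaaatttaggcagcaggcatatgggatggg
Myh7: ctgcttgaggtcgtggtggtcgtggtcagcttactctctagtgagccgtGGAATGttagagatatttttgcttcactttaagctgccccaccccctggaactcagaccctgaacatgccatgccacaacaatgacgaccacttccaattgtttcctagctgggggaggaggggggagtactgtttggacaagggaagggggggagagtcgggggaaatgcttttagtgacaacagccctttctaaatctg
Each window held 1 M-CAT match on its reverse strand, in the part farther from the start. Of 32851 windows of the same length in the table, 12.6% held CATTCC, 22.6% GATAA and 12.4% TATAAA, and the last 2 were not found in either sequence. The matches describe these letters only, and no measurement here bears on binding.

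Myh7-2 was at 11.003, 13.09, 12.05, 12.75, 9.55, 13.15, 3.51, 0, 0 and 0 cycles in adult cells 1 to 10, against 6.79, 7.58, 7.14, 8.35 and 9.32 in neonatal cells 1 to 5. Adult cells 1 to 6 were all above the highest neonatal cell, and adult cells 7 to 10 were all below the lowest. The other assay, Myh7-1, was at 8.82, 11.10, 10.33, 9.48, 7.53 and 10.99 in adult cells 1 to 6 and at 0 in adult cells 7 to 10, against 0, 3.76, 5.83, 6.18 and 7.35 in neonatal cells. As measured, both assays thus divided the adult cells in the same way, with 6 above every neonatal cell. Centred on the median detected assay, Myh7-2 was at 2.19, 2.895 and 1.75 in adult cells 1, 3 and 5, below neonatal cell 5 at 3.73. Myh7-1 was at 0, 1.17 and -0.26 in these adult cells, below neonatal cell 5 at 1.76. Adult cells 2, 4 and 6 stayed above every neonatal cell on that scale, at 4.99, 5.10 and 4.73 for Myh7-2 and 2.995, 1.83 and 2.56 for Myh7-1. The means hide the division of the adult cells. They were 7.51 ± 5.89 (SD, n = 10) in adult and 7.84 ± 1.01 (SD, n = 5) in neonatal cells for Myh7-2, and 5.82 ± 5.12 and 4.62 ± 2.89 for Myh7-1. The difference of 1.20 in Myh7-1 was 0.05 without neonatal cell 1, 0.99 without neonatal cell 2, and 0.62 to 0.87 without any of adult cells 1, 2, 3, 4 and 6. It was 1.88 without neonatal cell 5 and 1.85 without any of adult cells 7 to 10.

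The difference between the Myh7 and Myh6 assays inside a cell compares cells and not the amounts of both transcripts. The level of Myh7-2 minus that of Myh6-1 was -4.30, -1.79, -2.82, -3.75, -3.32, -0.45 and -10.86 in adult cells 1 to 7. In adult cells 8 to 10, without Myh7-2 signal, it was at most -16.37, -14.14 and -14.86, against -6.50, -5.08, -4.69, -3.48 and -1.75 in neonatal cells. Adult cells 1 to 6 overlapped the neonatal range and adult cells 7 to 10 lay below it. The mean difference between ages was -2.97 cycles over all cells and 0.40 over the 7 adult and 5 neonatal cells that detected both assays, so its direction rests on the cells without signal. Without adult cell 8 the value over all cells was -1.96. With Myh7-1 and Myh6-2 the difference was -0.27 over all cells and 2.20 over the 6 adult and 4 neonatal cells detecting both.

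Adult cells 7 to 10 were not without ventricular signal. Their Myl2 levels were 10.52, 14.89, 12.66 and 12.72, and their Myh6-1 levels were 14.37, 16.37, 14.14 and 14.86, above all 5 neonatal cells. The labels do not say whether the adult cells came from 1 heart or several, nor from which part of the ventricle, and the part of either in this division was not tested.

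Hcn4, a channel of the pacemaker current and a marker of the conduction system, was seen in adult cells only. It was at 0, 4.22, 5.73, 3.05, 5.47, 4.33, 0, 2.65, 0 and 0 cycles in adult cells 1 to 10, and at 0 in all 5 neonatal cells. It was detected in 6 of 10 adult cells (exact Clopper-Pearson 95% interval 26.2% to 87.8%) and in 0 of 5 neonatal cells (at most 52.2% by the same interval). These intervals cover counting error among the cells only, not the spread between animals. The mean adult level was 2.55 ± 2.38 (SD, n = 10) with undetected cells at 0, and the difference was 2.15 centred on the median detected assay. Both values depend on the level given to cells without signal. Hcn4 was the single assay whose share of detecting cells was at least 50 percentage points higher in adult cells (2.38% of 42). Of the 7 adult cells with Myh7-2 signal 5 detected Hcn4, and of the 3 without it 1 did.

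**Figure D3:**
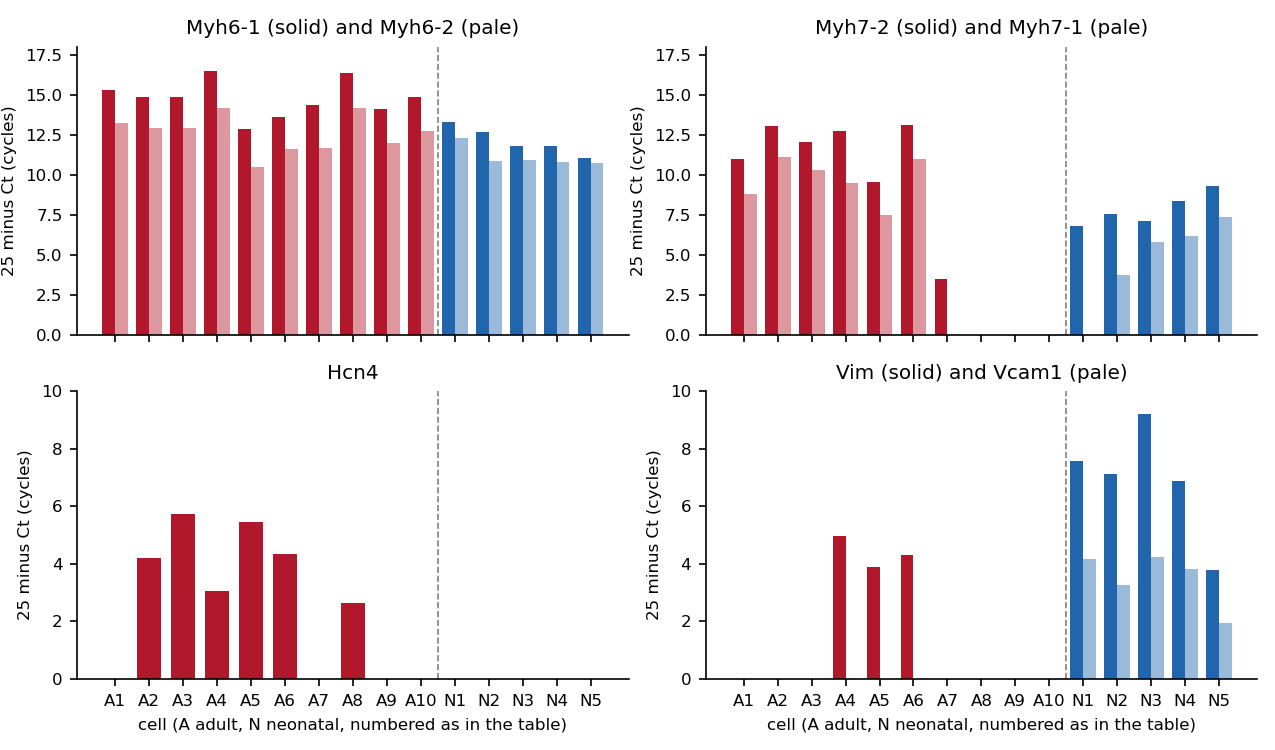
Expression (25 minus Ct, in cycles) in each adult (A1 to A10, red) and neonatal (N1 to N5, blue) ventricular cell for both Myh6 assays, both Myh7 assays, Hcn4, and Vim with Vcam1; bars start at the detection limit of 0 and a missing bar is an assay without signal. Myh6-1 is present in all 15 cells, Myh7-2 exceeds 9 cycles in adult cells 1 to 6 and is 3.51 or 0 in the other 4, and Vcam1 is present in neonatal cells only.

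Mesenchymal and adhesion genes were lower in adult cells. Of the 3 assays of this list 2 (Vim and Vcam1) were at least 1 cycle lower, beside 16.7% of all 42 assays. Fn1 (fibronectin) was detected in 0 of 15 cells. The median difference of the list was -3.49, beside 0 over all assays, of which 8 were detected in no cell. Vim, an intermediate filament protein of mesenchymal and immature cells, was at 0, 0, 0, 4.97, 3.90, 4.29, 0, 0, 0 and 0 cycles in adult cells 1 to 10, against 7.56, 7.11, 9.21, 6.89 and 3.80 in neonatal cells 1 to 5. Only neonatal cell 5 lay within the adult range. Vim was detected in 3 of 10 adult cells (95% interval 6.67% to 65.2%) and 5 of 5 neonatal cells (47.8% to 100%), and the difference of its means was -5.60 cycles as measured and -6.74 centred on the median detected assay, where the ages did not overlap. Over detecting cells alone the mean was 4.39 in adult cells and 6.92 in neonatal cells. The 3 adult cells with Vim (cells 4, 5 and 6) were all among those with high Myh7.

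Vcam1, a cell adhesion molecule of the embryonic myocardium and of endothelium, was detected in 0 of 10 adult cells (at most 30.8%), against 4.17, 3.28, 4.25, 3.83 and 1.96 cycles in the 5 neonatal cells, where the interval was 47.8% to 100%. Every neonatal cell was above every adult cell. The neonatal mean lay at least 3.49 cycles above the adult cells as measured. Vcam1 was the single assay lower in adult cells without overlap as measured (1 of 42, 2.38%). Centred on the median detected assay, 3 assays (7.14%) were lower without overlap, which were Vcam1, Vim and Gata4-2.

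All 5 neonatal cells detected Tnni3-1 and Tnnt2-1 together with Vim and Vcam1. Of the 3 fibroblast and mesenchyme markers (Vim, Fn1, Pdgfra) 2 were detected in each age. Their summed level was 0 to 10.27 cycles in adult and 3.80 to 14.41 in neonatal cells, and Fn1 was at 0 throughout. Pdgfra, a growth factor receptor of mesoderm and fibroblasts, was detected in 1 of 10 adult cells (cell 4, 5.30 cycles) and in neonatal cells 1, 3 and 4 (5.41, 5.20 and 4.92), a mean difference of -2.58. Of the endothelial markers, Cdh5 (VE-cadherin) was detected in adult cells 2 and 4 (4.64 and 6.20) and neonatal cell 1 (5.77), Pecam1 in neonatal cell 1 (3.79) and Vwf in neonatal cell 2 (3.70), with summed levels of 0 to 6.20 in adult and 0 to 9.56 in neonatal cells. The smooth muscle markers Cnn1 (0 of 15 cells) and Myh11 (adult cell 3, 4.41) were nearly absent, and with Sm22A their summed level was 0 to 9.53 in adult and 0 to 2.10 in neonatal cells. The part of such cells, or of their RNA, in the differences was not tested. The markers of epicardium and blood were not among the assays.

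Other receptors of mesoderm and progenitors differed little. Flk-1, the vascular endothelial growth factor receptor Kdr, was detected in 4 of 10 adult cells (up to 5.32) and 1 of 5 neonatal cells (6.40), and in all 3 cells with Cdh5. Kit-2, an assay of the stem cell factor receptor, was detected in 1 cell of each age and Kit-1 in none. Of the 4 assays of this list, 1 (Pdgfra) was at least 1 cycle lower and 0 were higher, beside 16.7% and 31% of all 42 assays.

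Cardiac transcription factors went both ways. Of the 13 assays, 3 (Tbx5, Hand2 and Nkx2.5-2) were at least 1 cycle higher in adult cells, beside 31% of all 42 assays. Another 3 (Gata4-2, Mef2C-2 and Hand1) were lower, beside 16.7% of all 42. The other 7 lay within 1 cycle, and the median difference was 0, as over all assays. Centred on the median detected assay, 0 were higher and 4 lower, beside 7.14% and 26.2% of all 42. Isl1-1, Isl1-2, Tbx1 and Mesp1, factors of cardiac progenitors and early mesoderm, were detected in 0 of 15 cells. They are among the 7 within 1 cycle, with a difference fixed at 0.

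Tbx5, a T-box factor of the developing chambers and the conduction system, had a lowest, median and highest level of 4.47, 6.48 and 8.00 in adult cells, against 5.15, 4.27, 5.48, 3.17 and 3.94 in neonatal cells. It was 1.94 cycles higher as measured, 0.67 on the median detected assay and 0.21 on the 12 shared assays. Hand2, a basic helix-loop-helix factor needed for ventricle formation, had 5.61, 6.46 and 8.67 as its lowest, median and highest adult level, against 6.34, 7.11, 2.98, 4.72 and 3.62, and was 1.74 higher as measured but 0.01 on the 12 shared assays. Its relative Hand1 was detected in neonatal cell 3 alone, at 5.95, the neonatal cell with the lowest Hand2.

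Nkx2.5 was higher in adult cells as measured, by less than the sarcomere median of 1.67, but not on the centred scales. Nkx2.5-1 had means of 8.76 ± 0.98 in adult and 8.03 ± 0.94 in neonatal cells (0.73 apart), and Nkx2.5-2 had 6.83 and 5.69 (1.14 apart). Relative to the median detected assay these differences were -0.54 and -0.13, beside a sarcomere median of 0.40. On the 12 shared assays they were -1.005 and -0.60, beside -0.07. Nkx2.5-2 came to 0.52 without neonatal cell 5, 0.99 without adult cell 2 and 0.96 without adult cell 3. Tnni3-1 exceeded Nkx2.5-1 in the same cell by 3.84 to 6.38 cycles in adult cells and by 2.47 to 4.27 in neonatal cells, ranges that overlapped, a pair also chosen after values were seen.

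Gata4, a zinc finger factor of cardiac genes, was lower in adult cells on 1 of its assays. Gata4-2 was at 8.30, 8.11, 7.39, 6.36, 6.49, 7.19, 0, 6.86, 4.88 and 6.50 cycles in adult cells, against 8.54, 8.04, 8.34, 7.12 and 6.79 in neonatal cells. The difference was -1.56 cycles as measured and -3.003 centred on the median detected assay, where the ages did not overlap. Without adult cell 7, which gave no signal, the difference was -0.87. Gata4-1 had means of 4.14 ± 2.36 in adult and 4.53 ± 1.31 in neonatal cells, a difference of -0.39 as measured and -1.80 centred. Relative to Nkx2.5-1 in the same cell, Gata4-2 was -3.51 to -0.79 in the 9 adult cells with signal. Adult cell 7, without signal, was at most -6.75, and neonatal cells were at -0.65 to 0.28. The ages did not overlap, with nearest values of -0.79 and -0.65, and the pair was chosen after the values were seen.

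Mef2C, a MADS-box factor of muscle, gave opposite signs on its assays. Mef2C-2 was detected in 5 of 10 adult cells and 4 of 5 neonatal cells with means of 2.73 ± 2.88 and 4.10 ± 2.40 (-1.37), and Mef2C-1 in 8 of 10 and 5 of 5 with means of 3.15 ± 2.09 and 2.84 ± 1.15 (0.31). Over detecting cells Mef2C-2 was 0.33 higher in adult cells, and over all cells it was -0.85 without neonatal cell 1 and -2.40 without neonatal cell 5. For the 7 genes with a pair of assays that were both detected in at least 1 cell, the age differences from the assays of a gene were 0.41 to 1.69 cycles apart with a median of 1.16, and 4 genes (Gata4, Mef2C, Myh6 and Myh7) exceeded 1 cycle. A single assay 1 cycle apart between ages is therefore within the disagreement of assays for the same gene.

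Among actin-binding and smooth muscle assays, 1 of 4 was higher, beside 31% of all 42 assays. Cnn2, a calponin found in many cell types, had a lowest, median and highest level of 0, 6.37 and 8.42 in adult cells, against 5.52, 6.15, 0, 0 and 4.67 in neonatal cells, 2.05 higher as measured and 0.93 centred on the median detected assay. It was detected in 8 of 10 adult and 3 of 5 neonatal cells, and the difference was 1.24 without neonatal cell 3 or 4. Sm22A, an actin-binding protein of smooth muscle, had means of 1.15 in adult and 0.86 in neonatal cells. Actb, the cytoskeletal actin used as the housekeeping assay, was at 2.22, 6.44, 0, 8.04, 4.90, 3.55, 3.39, 5.95, 5.87 and 5.59 in adult cells, against 6.15, 4.47, 5.12, 4.55 and 4.24 in neonatal cells. The adult cells thus spread over 8.04 cycles in this assay, and the mean was 4.60 ± 2.34 in adult and 4.91 ± 0.76 in neonatal cells.

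The atrial table, with 10 adult and 5 neonatal cells, shows the same contrast in the other chamber. There 3 assays (7.14%) stood at least 1 cycle higher in adult cells and 15 (35.7%) lower. Of the 13 assays higher in adult ventricular cells 3 were also higher in adult atrial cells, namely Tnni3-1, Myh6-1 and Actn2, which is 23.1% of the ventricular and 100% of the atrial assays. Of the 7 lower in the ventricle 6 were also lower in the atrium (Vim, Vcam1, Pdgfra, Gata4-2, Pou5f1 and Mef2C-2), which is 85.7% of the ventricular and 40% of the atrial assays. The difference between chambers was not tested, since each age is 1 sample in each chamber.

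**Figure D4:**
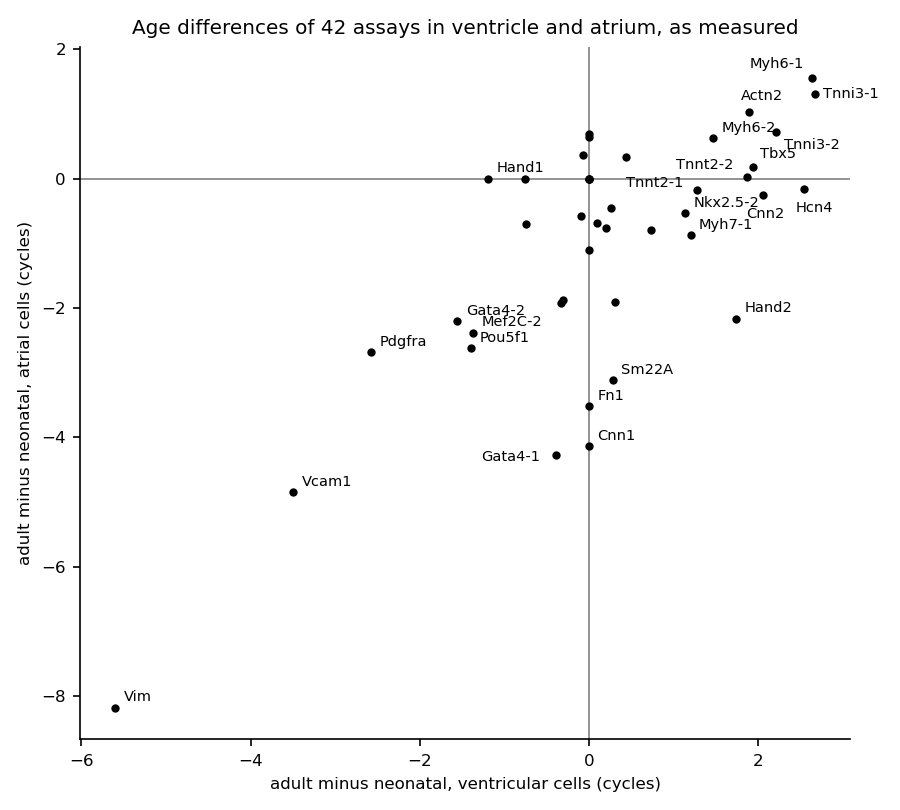
Adult minus neonatal mean of the 42 assays in ventricular (x axis) and atrial (y axis) cells, as measured in cycles; each point is 1 assay and those at least 1 cycle apart in the ventricle or 2 in the atrium are named. Vim and Vcam1 lie at the lower left, Tnni3-1, Myh6-1 and Actn2 at the upper right, and Hand2 is higher in adult ventricular and lower in adult atrial cells.

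Several differences were smaller or of the other sign in the atrial means. Over the 10 assays found in every cell of both tables, the mean level was 11.83 ± 0.98 in adult and 10.05 ± 0.74 in neonatal ventricular cells (1.78 apart), and 11.30 ± 0.69 in adult and 10.90 ± 0.40 in neonatal atrial cells (0.39 apart). The median level of a cell's detected assays differed by 1.27 in the ventricle and 0.52 in the atrium. This median depends on which assays a cell detects. Adult cells detected fewer, with means of 21.7 and 25.4 in adult and neonatal ventricular cells and 19.7 and 26.6 in atrial cells. Tnnt2-2 was 1.87 higher in the ventricle and 0.03 in the atrium, Tbx5 1.94 and 0.18, and Hcn4 2.55 and -0.17. Hand2 was the single assay at least 1 cycle apart in opposite directions, at 1.74 in the ventricle and -2.16 in the atrium, where its means were 3.94 ± 1.95 in adult and 6.11 ± 1.03 in neonatal cells. Myh7-2 was detected in 0 of 10 adult atrial cells and 2 of 5 neonatal atrial cells. Fn1 and Cnn1, lower in adult atrial cells by 3.52 and 4.14, were detected in no ventricular cell of either age. Cnn1 was detected in 4 of 5 neonatal atrial cells. Fn1 was at 3.80, 0, 2.36, 0 and 11.43 in these cells, so cell 5 sets most of its difference. That cell also had the highest Vim (13.80), Vcam1 (8.99) and Pdgfra (9.19, with 4.21 in cell 1 and 0 in the others) of the neonatal atrial cells.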

How the data were processed

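Per the labels' protocols, single cells were sorted into strips, lysed, reverse transcribed and pre-amplified with a direct one-step kit and TaqMan assays, and read on Fluidigm chips in a BioMark instrument. The authors deposited quantification cycles (Ct), with 25 for no signal. The Ct threshold, cycle number and cell filter were not given in the sources used here. SDs and intervals describe the cells measured, and precision across animals cannot be given because no label names an animal.

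Each column was matched to its sample by title and to its age by the cell name in the table. The negative control gave no signal on any assay and the positive control gave signal on all 42. Of the positive control's values, 40 stood 1 row lower than in the reference table. Row names were checked on 6 genes that have a pair of assays: their mean gap inside a cell was 1.58 cycles with row names as given and 6.40 with names shifted by 1 row, and the names were kept. No ventricular cell repeats another cell of the series.

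Expression, means, SDs and exact (Clopper-Pearson) 95% intervals were computed with Python 3.11.15, pandas 2.3.3 and scipy 1.17.1. After centring, an undetected value was set to the lowest centred value of any detected assay in the 15 cells. No p-value was computed. The script was tested on simulated differences. Assays named are those at least 1 cycle apart as measured or centred on the median detected assay, at least 50 percentage points apart in detection, or without overlap, and Tnni3-1, Myh6-1, Vim, Vcam1 and Hcn4 (24 assays). Others are named as members of gene lists. The members and lists were chosen with earlier results of these data known. Calponin 1 and 2 of other tables were read as Cnn1 and Cnn2.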

Additional observations from a re-analysis of the deposited data

Results flagged for a closer look

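In 51 sets of values (the named assays and per-cell summaries, by age), 5 values, from 4 cells, stood far from the others of their age by Dixon's ratio of gap to range. Chance flags about 1 set in 20 where values are normally distributed. That rate does not hold for sets with undetected cells at 0, where a single detected cell is always flagged if all others are at 0. Adult cell 4 was the single adult cell with Pdgfra (5.30 cycles, the other 9 at 0), and it also had the most detected assays (28) and the highest Tnni3-1. Adult cell 7 was the single adult cell with Gata4-2 at 0 (the others 4.88 to 8.30). Neonatal cell 3 alone detected Hand1 (5.95). Neonatal cell 1 had Myh6-2 at 12.32 (the others 10.75 to 10.91) and Tnni3-1 at 12.08 (the others 10.77 to 11.13). No assay had all adult cells above the neonatal ones in a chamber and all below them in the other.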

How the results depend on the processing

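The count of assays higher in adult cells, 13 as measured, was 3 centred on the median detected assay, 1 on the median and 2 on the mean of the 12 shared assays, and 5 at a threshold of 2 cycles. The count of lower assays, 7, was 11, 15 and 12 on those scales, 3 at 2 cycles, and 1 over detecting cells (20 of the 24 named assays have 3 such cells at each age). The 8 higher sarcomere assays were 2, 0 and 1. Centring on Actb, a limit of Ct 23, medians, and the filter on cells (which left out adult cell 3, without Actb) kept these 3 counts within 1.5 times. Leaving out each cell in turn gave 11 to 14 higher, 6 to 7 lower and 7 to 8 sarcomere assays, -3.72 to -1.96 for Myh7 minus Myh6, -4.40 to -3.05 for detected assays and 1.06 to 1.501 for the median level. Myh7 minus Myh6 turned to 0.40 in cells detecting both.

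Among assays at least 1 cycle apart as measured, signs turned for Nkx2.5-2 (-0.13 on the median detected assay, -0.60 and -0.50 on the shared assays' median and mean), Myh7-1 (-0.12, -0.42 and -0.30), Myh6-2 (-0.27 and -0.17) and Tnnt2-1 (-0.46 and -0.37) on the shared assays, and Mef2C-2 (0.33) over detecting cells. Among named assays within 1 cycle, they turned for Myl2 (-1.18, -1.64 and -1.55 on those scales, -0.22 on Actb, -0.02 with the cell filter), Myh7-2 (2.69 by medians, 2.89 over detecting cells, 0.27 at Ct 23), Actb (0.70 by medians, 0.20 over detecting cells and with the cell filter) and Gata4-1 (0.06, 0.64 and 0.01 by medians, over detecting cells and at Ct 23), and for each of these 4 without some single cells. Centring by its construction subtracts the higher level of adult cells. The mean of the shared assays was added after the data were seen. Without neonatal cell 3 Hand1 was at 0, without neonatal cell 5 Mef2C-2 was at -2.40, and without adult cell 6 Pou5f1 was at -0.98. No paired analysis was possible because nothing ties the cell numbers that both ages share to an animal or batch. Undetected values limit all differences near 0.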

Other observations

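Pluripotency assays gave signal in these heart cells. Pou5f1, a factor of pluripotent stem cells, was at 3.26, 5.90, 3.61, 7.08, 3.66, 0, 3.57, 5.003, 1.85 and 3.21 cycles in adult ventricular cells 1 to 10, against 4.82, 5.18, 6.48, 5.03 and 4.03 in neonatal cells. It was detected in 14 of the 15 cells, in 62 of 72 cells of E10.5 embryos and in all 30 reference cells. Its mean was 3.71 ± 1.99 in adult and 5.11 ± 0.89 in neonatal ventricular cells, a difference of -1.39 as measured and -2.56 centred on the median detected assay. The highest ventricular cell (7.08) lay below the lowest of the 5 ES reference cells (7.96). The other reference groups also gave signal in every cell. Their means were 5.06 in cardiac progenitors, 5.33 in cardiomyocytes, 5.28 in endothelial cells, 5.63 in fibroblasts and 7.14 in smooth muscle cells. All of these lay above the adult ventricular mean. Sox2, the partner factor of Pou5f1, was detected in 6 of 10 adult and 4 of 5 neonatal ventricular cells, with means of 1.93 and 1.67.

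The adult cells did not all order alike across gene groups. Adult cell 4 had the highest Myh6-1 (16.50), Tnni3-1 (16.19), Actn2 (13.83), Hand2 (8.67) and Actb (8.04) of the 15 cells and also detected Vim, Pdgfra, Cdh5 and Flk-1. Adult cell 7 had the lowest Myl2 of the 15 (10.52), and the lowest Nkx2.5-1 among adult cells (6.75), while its Myh6-1 (14.37) was above every neonatal cell. Among neonatal cells, Myh7-2 and Myh6-1 ran in opposite orders at their ends, with cell 1 highest in Myh6-1 (13.30) and lowest in Myh7-2 (6.79) and cell 5 lowest in Myh6-1 (11.07) and highest in Myh7-2 (9.32).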
